A study of Mus musculus with 4 samples.

Results

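The collagen genes were the 44 genes, of 32285 genes in the deposited tables, whose symbol was Col, a number, the letter a and a second number and nothing more, as in Col1a1. Their unique molecular identifier (UMI) counts were followed in single-cell RNA-seq of orthotopic pancreatic tumors grown from KPC FC1242 cells, a mouse pancreatic ductal adenocarcinoma line. The study asked how tumors respond when stromal cells that express Pdgfrb, or stromal cells that resemble adipose stromal cells, are killed. Each of the 4 conditions was 1 library of pooled tumor suspensions, so no replicate error exists and no test between conditions was possible.

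All hosts were C57BL/6 mice, male and made obese on a high-fat diet for 24 weeks before grafting by the study's methods, and 7 months old by the labels, whereas the study's text gives 12 months. The Pdgfrb-TK/GCV mice carried thymidine kinase under the Pdgfrb promoter and received 50 mg/kg ganciclovir (GCV), which kills dividing cells that express the transgene. The Pdgfrb-TK/PBS mice had the same transgene and received PBS. The D-CAN mice were wild type and received 30 mg/kg D-CAN, a peptide that homes to adipose stromal cells and induces apoptosis, and the WT/PBS mice were wild type and received PBS. Treatment ran for 25 days. The transgene acts in any dividing cell with an active Pdgfrb promoter, including mural cells of vessels, and the grafted tumor cells do not carry it. The extraction text attached to the samples describes nuclei of another tissue, so markers were looked at, and KPC, fibroblast, endothelial and macrophage markers were all found. These markers alone cannot tell this tumor from another tissue with the same cell classes, or cells from nuclei.

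Collagens are helical trimers of glycine-rich chains, and the chains of many types come from separate genes. Fibrillar types I, III and V build the cables of the tumor stroma, type IV builds the sheets of basement membranes under epithelium and endothelium, and the remaining types link, coat or anchor these networks. In pancreatic cancer the dense collagenous stroma is laid down mainly by cancer-associated fibroblasts (CAFs). The chains are modified by prolyl and lysyl hydroxylases in the endoplasmic reticulum, trimmed outside the cell and cross-linked by lysyl oxidases.

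Between 10178 and 12280 cells per library had at least 200 genes, with 84000174 to 155382616 UMIs. In the D-CAN library 29.3% of these cells had over 20% mitochondrial UMIs, against 18.2% in WT/PBS, 8.42% in Pdgfrb-TK/PBS and 4.48% in Pdgfrb-TK/GCV, and pairs of libraries shared 25 to 40 barcodes. Cells were put in classes by lists of markers that hold no collagen gene, no Pdgfrb and no Dcn. Fibroblast-marker cells numbered 173, 318, 878 and 1427 in the libraries of Pdgfrb-TK/GCV, then Pdgfrb-TK/PBS, then D-CAN and last WT/PBS, and wherever 4 values follow each other below they are in this order. In them the KPC marker list summed to 413, 614, 209 and 458 CPM, against 6319.6, 8204, 5939 and 8375 CPM in KPC tumor-marker cells. Levels are given as CPM, the UMIs of a gene scaled to 1000000 UMIs of the class. Each UMI is 1 tag at the 3′ end of a transcript, so levels were not divided by length, and 95% intervals are exact and cover counting error only. The median depth of fibroblast-marker cells was 11185, 5085, 10482 and 11712 UMIs, so that Pdgfrb-TK/PBS was the shallow library.

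The 120 bases before the RefSeq start (GRCm38.p6) are shown for Col3a1, the most counted collagen, for Col8a1, which was low after GCV, and for Col27a1, which differed between the libraries in tumor cells. None of the 3 stretches overlaps an annotated exon. Capitals mark TATAAA, the classical TATA sequence, searched with CCAAT on both strands. The TATAAA marked in Col3a1 begins 117 bases before the start, and whether it acts in transcription was not tested. Of the 44 genes, 35 had a promoter entry, with 38 windows in all.
Col3a1, chr1:45311418-45311537, plus strand: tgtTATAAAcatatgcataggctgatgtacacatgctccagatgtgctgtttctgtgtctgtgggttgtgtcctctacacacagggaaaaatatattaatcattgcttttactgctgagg
Col8a1, chr16:57754738-57754857, minus strand: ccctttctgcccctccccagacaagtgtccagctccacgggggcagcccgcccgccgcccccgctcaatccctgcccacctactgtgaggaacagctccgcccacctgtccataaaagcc
Col27a1, chr4:63215292-63215411, plus strand: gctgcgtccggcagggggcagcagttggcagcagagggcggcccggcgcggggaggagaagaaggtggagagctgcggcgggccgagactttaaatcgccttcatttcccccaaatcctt
TATAAA or its reverse complement lay within 250 bases before the start in 5 of the 38 collagen windows, beside 12.4% of 32851 windows of all genes. CCAAT or its reverse complement lay in 13 of 38, beside 33.8% of all windows. Col4a1 and Col4a2 lie head to head on chromosome 8, with annotated starts 21 bases apart on opposite strands, and Col4a5 and Col4a6 lie head to head on chromosome X with starts 1343 bases apart.

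All 44 genes had at least 1 UMI. Over all cells 37 had at least 100 UMIs and 4 had over 100000, namely Col3a1 (304847), Col1a1 (280084), Col1a2 (246335) and Col4a1 (128558). Fibroblast-marker cells held the most UMIs of 26 genes, KPC tumor-marker cells of 16, and endothelial-marker cells of Col13a1. These classes had 2796, 20017 and 676 cells over the 4 libraries, so such counts depend on class size as well as on level. The same shares over all genes were not taken. Macrophage-marker cells held the most of Col19a1, which had 23 UMIs in all. The 7 genes under 100 UMIs were Col2a1, Col6a4, Col9a1, Col9a2, Col19a1, Col22a1 and Col26a1, and they are not described further.

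Where collagen transcripts lay differed between the libraries of the host models, and host and pool cannot be told apart. Fibroblast-marker cells held 27.4, 43.4, 77.7 and 75.2% of the collagen UMIs of the 4 libraries. KPC tumor-marker cells held 48.2, 37, 13.3 and 11.9%. The tumor cells thus held more than the fibroblasts in Pdgfrb-TK/GCV, and the fibroblasts held more in the other 3 libraries, by the widest margin in the wild-type hosts. Cells put in no single class, for want of markers or because several lists scored, held 17.7, 13.9, 5.67 and 8.75%. They made up 34.3, 27.8, 38.8 and 29.3% of cells, and in D-CAN their median share of mitochondrial UMIs was 42.4%.

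Over all cells kept, the summed collagen level was 1125, 1524, 3930.2 and 4865 CPM. The ratio was 0.738 (95% interval 0.733 to 0.744) for Pdgfrb-TK/GCV over Pdgfrb-TK/PBS and 0.808 (95% interval 0.805 to 0.811) for D-CAN over WT/PBS. The PBS libraries differed more from each other than either treatment pair, with Pdgfrb-TK/PBS at 0.313 of WT/PBS. This level joins cell numbers with the level per cell, and fibroblast-marker cells made up 1.41, 3.04, 8.63 and 12.3% of cells.

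Within fibroblast-marker cells the summed level was 18141, 30150.4, 36986 and 31574 CPM, so that 1.81, 3.02, 3.70 and 3.16% of their UMIs were collagen. Pdgfrb-TK/GCV stood at 0.602 (95% interval 0.594 to 0.61) of Pdgfrb-TK/PBS, and D-CAN stood at 1.17 (95% interval 1.17 to 1.18) of WT/PBS. The difference therefore pointed down after GCV and slightly up with D-CAN, and the PBS libraries differed by 0.955. Pdgfrb itself, the gene whose promoter drives the kinase, was at 64.4, 245, 271 and 169 CPM in these cells, lowest in Pdgfrb-TK/GCV. Dcn encodes decorin, and the study describes D-CAN as acting on cells with PDGFRβ and a form of decorin without its glycan. Transcripts of Dcn do not tell this form apart. Dcn was at 2559, 2347, 3140.3 and 1545 CPM and did not follow the same order. Fibroblast-marker cells with a UMI of Wt1, a mesothelial marker, made up 63.0, 41.8, 62.6 and 36.2%. These shares were taken without thinning, and Pdgfrb-TK/PBS was the shallow library. Depth can therefore affect them and every split by Wt1 below, which was not tested. The mesothelial list of 7 markers summed to 133, 141, 170.1 and 61.3 CPM in these cells, with 0 of the 7 at 0 in the first 3 libraries and 2 of 7 in WT/PBS. Among cells without a Wt1 UMI the ratios were 0.642 (95% interval 0.629 to 0.656) and 1.09 (95% interval 1.08 to 1.1).

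**Figure D1:**
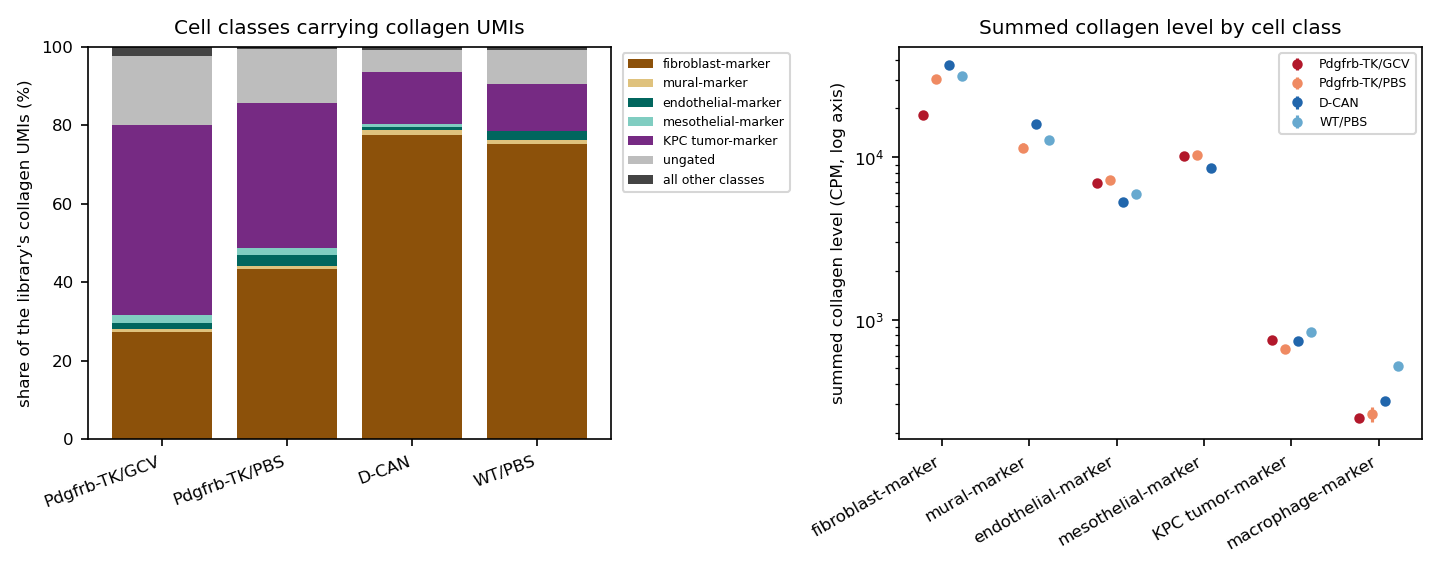
Left, stacked bars of the share (%) of each library's collagen UMIs by cell class; right, summed collagen level (CPM, log axis) per class and library, with bars for 95% counting intervals and points only where a class had 20 cells or more. Fibroblast-marker cells hold 27.4% of collagen UMIs in Pdgfrb-TK/GCV and 77.7% in D-CAN, and their level is lowest in Pdgfrb-TK/GCV.

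Other stromal cells had another makeup. Mural-marker cells, the pericytes and smooth muscle of vessels, numbered 3, 31, 35 and 108, and in the last 3 libraries their sum was 11465, 15993 and 12711 CPM, below fibroblast-marker cells of the same library. The 3 cells of Pdgfrb-TK/GCV had 23017 CPM, above its fibroblast-marker cells. Endothelial-marker cells were at 6892, 7245, 5271 and 5969.6 CPM. KPC tumor-marker cells were at 746, 661, 738 and 833 CPM, and macrophage-marker cells at 247, 260.5, 315 and 514 CPM.

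The fibrillar collagens, 11 genes, gave 80.3, 79.4, 80.8 and 74.8% of the collagen UMIs of fibroblast-marker cells. Col1a1, the main chain of type I collagen, was at 3819, 6521, 8252 and 7329 CPM. It was at 0.586 (95% interval 0.57 to 0.602) of its control after GCV and at 1.13 (95% interval 1.12 to 1.14) with D-CAN. Col1a2, the second chain of type I, was at 3447, 6087, 6909 and 6627 CPM, a ratio of 0.566 after GCV and of 1.04 with D-CAN. Pdgfrb-TK/GCV was thus the low library for both type I chains and the other 3 libraries lay within a narrower band.

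Col3a1, the single chain of type III collagen, which forms thin fibrils with type I, was at 5226, 8388, 11391 and 6509.97 CPM. Its ratio was 0.623 (95% interval 0.608 to 0.638) after GCV and 1.75 (95% interval 1.74 to 1.76) with D-CAN. WT/PBS was the 1 library in which Col3a1 had fewer UMIs than Col1a1, with a Col3a1 to Col1a1 ratio of 1.37, 1.29, 1.38 and 0.888. Type I chains kept closer to each other, and the ratio of Col1a1 to Col1a2 was 1.11, 1.07, 1.19 and 1.11.

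Type V collagen sits inside type I fibrils and limits their width. Its chain gene Col5a1 was at 658, 865, 1127 and 686 CPM and its chain gene Col5a2 at 1076, 1625, 1829.96 and 1915 CPM. Col5a1 was at 1.64 (95% interval 1.6 to 1.68) of WT/PBS in D-CAN while Col5a2 was at 0.956 (95% interval 0.939 to 0.973). The ratio of Col5a1 to Col5a2 was therefore 0.611, 0.532, 0.616 and 0.358, lowest in WT/PBS. Col5a3, a less widespread chain, was at 198, 209, 216 and 335 CPM, highest in WT/PBS.

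Minor fibrillar genes were further apart. Col11a1, a type XI chain best known from cartilage and from CAFs, was at 44.6, 68.9, 37.7 and 140.2 CPM and stood at 0.269 (95% interval 0.241 to 0.299) of WT/PBS in D-CAN. Without the cells that had a Wt1 UMI, this ratio was 0.488. After GCV its ratio was 0.648 (95% interval 0.492 to 0.85), with 8 UMIs in Pdgfrb-TK/GCV and 79 in Pdgfrb-TK/PBS among cells without a Wt1 UMI, and 89 and 48 among cells with one. Col27a1 was at 45.1, 73.8, 88.1 and 47.7 CPM and Col24a1 at 46.9, 86.2, 28.9 and 26.4 CPM, the latter highest in the Pdgfrb-TK host libraries.

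**Figure D2:**
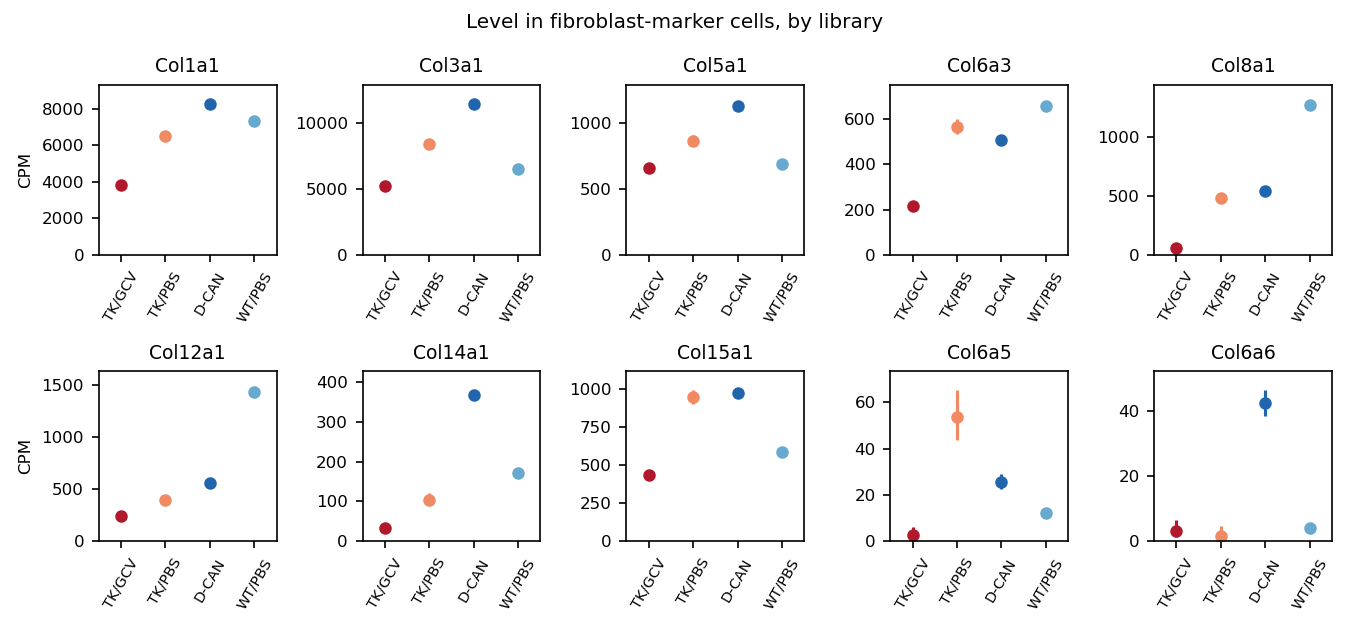
Level (CPM) of 10 collagen genes in fibroblast-marker cells of the 4 libraries, with bars for 95% counting intervals; the vertical axes start at 0. Col8a1 runs from 60.3 CPM in Pdgfrb-TK/GCV to 1274 CPM in WT/PBS, and Col6a6 is at 42.3 CPM in D-CAN and at most 4 CPM in the other libraries.

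The fibril-associated collagens, which coat fibrils without forming them, differed among themselves. Col12a1, a large type XII chain found in tissues under tension, was at 239, 396, 558 and 1435 CPM, highest in WT/PBS. It was at 0.389 (95% interval 0.378 to 0.4) of WT/PBS in D-CAN and at 0.604 (95% interval 0.539 to 0.677) of Pdgfrb-TK/PBS after GCV. Set against the other PBS library, D-CAN was higher, with a log2 ratio of 0.49. After GCV the ratio was 0.421 among cells without a Wt1 UMI and 1.16 among cells with one. Col14a1, the type XIV chain, went the other way with D-CAN at 34, 105, 369 and 172 CPM, a ratio of 2.15 (95% interval 2.05 to 2.25), and of 0.325 (95% interval 0.245 to 0.427) after GCV. Col16a1 was at 79.6, 113, 136 and 109 CPM and stayed under 2-fold in both comparisons. Col20a1 did not exceed 8.39 CPM in these cells.

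Type VIII collagen forms a hexagonal network around vessels and in remodelling matrix. Of the 13 collagens with 10000 UMIs or more in these cells, its gene Col8a1 had the lowest ratio after GCV, at 60.3, 481, 543 and 1274 CPM. The ratio was 0.125 (95% interval 0.104 to 0.151) after GCV and 0.426 (95% interval 0.414 to 0.439) with D-CAN, and WT/PBS was the high library. Against Pdgfrb-TK/PBS in place of WT/PBS, D-CAN gave a log2 ratio of 0.18, so the direction with D-CAN rested on the choice of control. A Col8a1 UMI was found in 5.88, 27.4, 32.9 and 69.1% of fibroblast-marker cells thinned to 2000 UMIs each, and in 15, 33, 49.8 and 86.5% before thinning. The same thinned shares were 0.349, 0.245, 0.28 and 1.79% in KPC tumor-marker cells, whose median depth was 13622.5, 9186, 24622.5 and 15346 UMIs. Thinning left out 3, 22, 57 and 75 fibroblast-marker cells. Col8a2, its partner chain, had 3, 20, 363 and 280 UMIs, at 1.38, 10.8, 33.9 and 15.6 CPM. Col10a1, a related short chain of cartilage, had 114 of its 123 fibroblast UMIs in WT/PBS.

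Type VI collagen forms beaded filaments that tie cells to the fibrils. Its chain genes Col6a1, Col6a2 and Col6a3 were lower after GCV, unequally. Col6a1 was at 546, 934, 864 and 1071 CPM with a ratio of 0.584 (95% interval 0.542 to 0.629), and Col6a2 was at 364, 740.4, 542 and 696 CPM with a ratio of 0.492 (95% interval 0.45 to 0.537). Col6a3, the longest chain, was at 218, 567, 509.6 and 658 CPM with a ratio of 0.384 (95% interval 0.344 to 0.428). The ratio of Col6a3 to Col6a1 was accordingly 0.399, 0.607, 0.59 and 0.614, lowest in Pdgfrb-TK/GCV. With D-CAN the 3 genes stood at 0.807, 0.778 and 0.775 of WT/PBS.

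The alternative type VI chains had few UMIs and wide differences. Col6a5 was at 2.76, 53.7, 25.7 and 12.4 CPM, from 6, 99, 275 and 223 UMIs, with a ratio of 0.0514 (95% interval 0.0184 to 0.116) after GCV. Col6a6 was at 3.22, 1.63, 42.3 and 4 CPM, from 7, 3, 452 and 72 UMIs. Its ratio of 10.6 (95% interval 8.23 to 13.8) with D-CAN had the highest value of any collagen that passed the minimum of 100 UMIs.

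Basement membrane collagens, 6 genes, had the family ratio nearest to 1 after GCV, 0.846, and one of 1.3 with D-CAN. Col4a1 was at 894, 1026, 1471 and 1081 CPM, a ratio of 0.871 (95% interval 0.817 to 0.929) after GCV and of 1.36 (95% interval 1.33 to 1.39) with D-CAN. Col4a2, its divergent neighbour on chromosome 8 and partner in the type IV trimer, was at 488, 596, 809 and 662 CPM. The Col4a1 to Col4a2 ratio was 1.83, 1.72, 1.82 and 1.63 in fibroblast-marker cells and 1.35, 1.44, 1.92 and 1.52 in endothelial-marker cells. Col4a5 and Col4a6, the divergent pair on chromosome X, were at 80, 105, 28.7 and 28.5 CPM and 25.3, 33.1, 1.4 and 7.33 CPM, both highest in the Pdgfrb-TK host libraries. Mesothelial-marker cells had Col4a5 at 68, 156 and 182 CPM and Col4a6 at 49.4, 101 and 76.9 CPM in the first 3 libraries, from 25, 31 and 33 cells, and WT/PBS had 1 such cell.

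Multiplexins carry long non-helical stretches next to basement membranes, and a fragment of Col18a1 is endostatin. Col15a1 was at 435, 947, 973 and 586 CPM, with a ratio of 0.459 (95% interval 0.424 to 0.497) after GCV and of 1.66 (95% interval 1.62 to 1.71) with D-CAN. Col18a1 was at 78.2, 64, 81.3 and 39.9 CPM and at 2.04 (95% interval 1.84 to 2.25) of WT/PBS in D-CAN. Among other types, Col7a1, the anchoring fibril chain, was at 12.4, 16.8, 13.7 and 33.2 CPM, Col28a1 at 3.22, 6.51, 27.6 and 10.1 CPM and the transmembrane Col23a1 at 7.82, 21.7, 55.2 and 40.2 CPM.

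Counted over the list, 23 collagen genes had at least 100 UMIs in the fibroblast-marker cells of the Pdgfrb-TK libraries, and 22 of them had a log2 ratio below 0 after GCV. The exception was Col18a1. At a fold of 2 or more, with 1 CPM added, 6 were lower (Col6a2, Col6a3, Col6a5, Col8a1, Col14a1 and Col15a1) and 0 were higher, beside 3.47% lower and 2.46% higher of all 5647 genes with as many UMIs. Col6a2 and Col15a1 were no longer past 2-fold with WT/PBS as control, with cells of equal weight or without cells with a Wt1 UMI, so that 4 of the 6 stayed under each of these. The median log2 ratio was -0.70 for the collagen genes and -0.07 for all genes. With D-CAN, 30 collagen genes passed the minimum, 18 above and 12 below 0. Of these 5 were higher by 2-fold (Col6a6, Col8a2, Col14a1, Col18a1 and Col28a1) and 6 lower (Col4a6, Col7a1, Col8a1, Col10a1, Col11a1 and Col12a1), beside 12.7% higher and 7.16% lower of 11404 genes. The median log2 ratio was 0.15 for the collagen genes and 0.15 for all genes. Of the 9 of these genes with at least 10 CPM in a library, 4 stayed past 2-fold with Pdgfrb-TK/PBS as control and 6 without cells with a Wt1 UMI. Genes that passed the minimum had UMIs in at least 1 of the 2 libraries by design, so these counts are a description. The share of all genes above or below 0 was not taken, here or for the genes that modify and bind collagen below.

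Between the PBS libraries, 29 collagen genes passed the minimum. Pdgfrb-TK/PBS was 2-fold or more above WT/PBS for Col4a5, Col4a6, Col6a5 and Col24a1 and below it for Col8a1, Col10a1, Col11a1, Col12a1 and Col20a1, beside 8.63% and 8.62% of 10270 genes. In KPC tumor-marker cells 1 of 26 collagen genes was above (Col27a1) and 11 were below, beside 5.53% and 4.85% of 13822 genes. In endothelial-marker cells 0 of 10 were above and 3 below (Col1a1, Col5a2 and Col23a1), beside 4.89% and 8.68% of 5193 genes. The hosts differ in the transgene and are 1 pool each, so host and pool cannot be told apart.

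**Figure D3:**
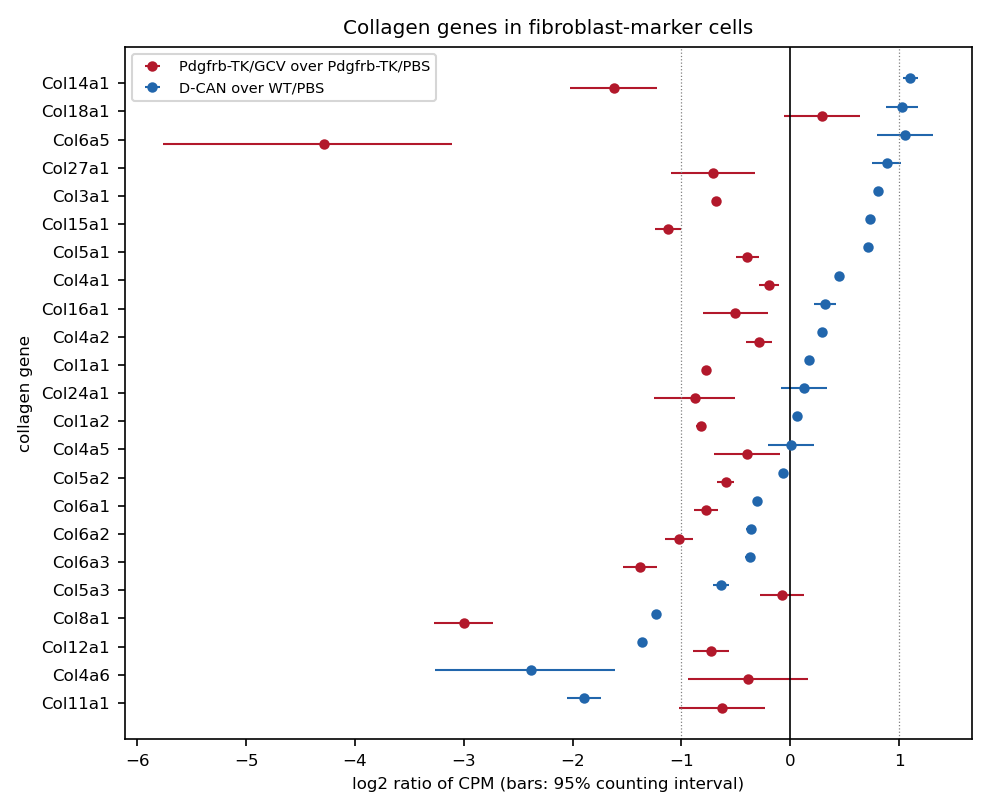
Log2 ratio of CPM in fibroblast-marker cells for the 23 collagen genes with at least 100 UMIs in both comparisons, with bars for 95% counting intervals and dotted lines at 2-fold. Red points (GCV) lie left of 0 for all but Col18a1, and blue points (D-CAN) run from Col11a1 and Col4a6 on the left to Col14a1 on the right.

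To see whether the levels varied along known fibroblast states, each fibroblast-marker cell was scored for 8 inflammatory CAF (iCAF) genes and 8 myofibroblastic CAF (myCAF) genes, with no collagen among them. This splits a range and names no types, and 43, 68, 84 and 130 cells lay within 0.05 of the cut. Cells leaning to the iCAF score made up 38.7, 36.8, 63.6 and 15.3% of fibroblast-marker cells, the highest share in D-CAN and the lowest in WT/PBS. Summed collagen was higher in the myCAF-leaning cells in 4 of 4 libraries, by 1.26, 1.09, 1.3 and 1.3 times.

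Of the 22 collagen genes with at least 1000 UMIs in these cells, 14 were higher in myCAF-leaning cells in 4 of 4 libraries, 2 were lower in 4 of 4, and 6 were mixed. The same shares over all genes were not taken, so these counts describe the members and do not set collagens apart from other genes. The CPM ratio of myCAF-leaning to iCAF-leaning cells was 6.05, 8.27, 5.1 and 2.17 for Col8a1 and 3.44, 4.04, 4.57 and 2.5 for Col12a1. For Col11a1 it was 48, 7.23, 3.04 and 3.44, and for Col15a1 1.87, 1.89, 2.02 and 4.04. Type I was less divided, with 1.65, 1.24, 1.79 and 1.29 for Col1a1, and Col3a1 was mixed at 1.11, 0.803, 0.842 and 1.02. Col14a1 lay on the iCAF side at 0.107, 0.168, 0.273 and 0.306, and so did Col18a1 at 0.512, 0.684, 0.536 and 0.701. Col11a1 had 97 fibroblast UMIs in Pdgfrb-TK/GCV, so its first ratio rests on few counts. Col6a5 and Col6a6, added after their values were seen, were lower in myCAF-leaning cells of D-CAN and WT/PBS, at 0.143 and 0.165 for Col6a5 and at 0.143 and 0.19 for Col6a6.

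**Figure D4:**
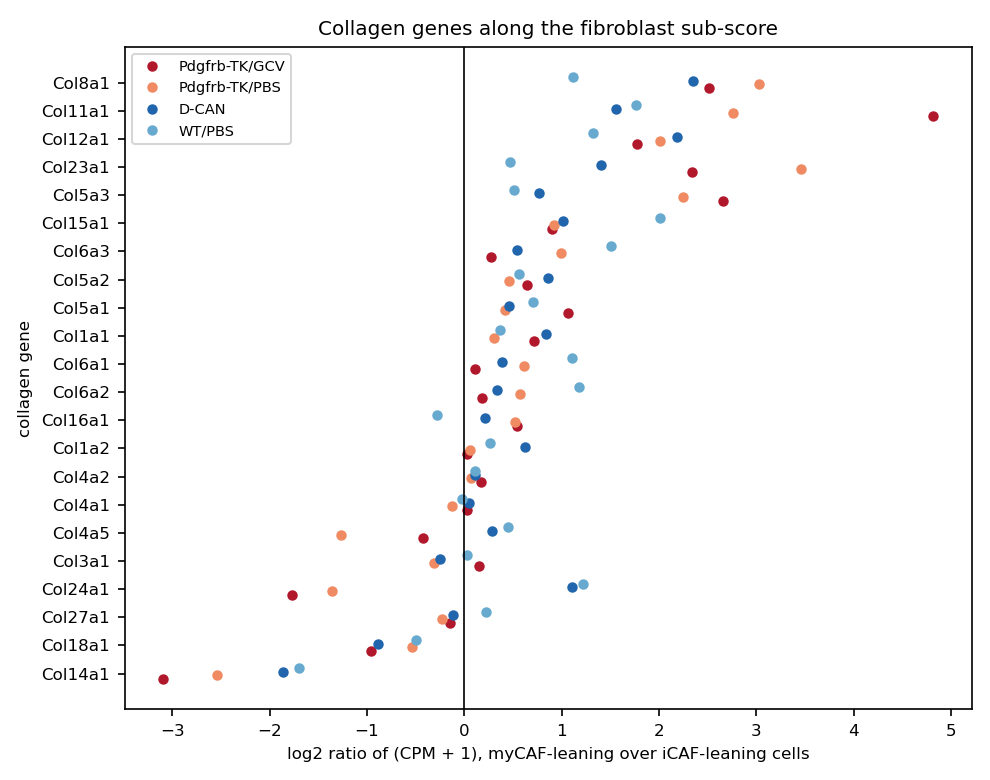
Log2 ratio of CPM, with 1 CPM added, of myCAF-leaning over iCAF-leaning fibroblast-marker cells for 22 collagen genes; each point is 1 library. Col8a1, Col11a1 and Col12a1 lie to the right in 4 of 4 libraries, and Col14a1 and Col18a1 to the left.

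Comparisons within each side of the score gave other sizes than the pooled ones. With D-CAN, Col12a1 was at 0.335 of WT/PBS among iCAF-leaning cells and at 0.611 among myCAF-leaning cells. Col8a1 was at 0.293 and 0.69, and its difference in the myCAF-leaning cells was under 2-fold. Col14a1, 2.15 times WT/PBS in the pool, was at 1.3 and 1.16 within the sides. Col3a1 was at 1.93 and 1.59 and Col15a1 at 4.08 and 2.04, above WT/PBS on both sides. After GCV, Col8a1 was at 0.175 and 0.128 of Pdgfrb-TK/PBS, so that its low level was present on both sides.

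Genes that modify, export, trim, cross-link and bind collagen were listed too, and their groups differed after GCV. Of 45 listed genes in the files, 33 passed the minimum in the Pdgfrb-TK libraries and 20 of them had a log2 ratio above 0, with a median of 0.11 beside -0.07 for all genes. By 2-fold 1 was higher and 3 were lower, against the 2.46% and 3.47% of all genes. The median log2 ratio was 0.37 for the 12 tested genes of prolyl and lysyl modification, 0.0026 for 8 of folding and export, 0.064 for 4 of cross-linking, -0.67 for 4 of trimming and -0.40 for 5 receptors. Plod3, a lysyl hydroxylase, was higher by 2-fold at 109.9, 52.1, 101 and 69.1 CPM, and P4ha2, a prolyl hydroxylase, was at 1.93 (95% interval 1.55 to 2.43) and P4ha1 at 1.6 (95% interval 1.39 to 1.84) of control. Lower by 2-fold were Itga1, a collagen-binding integrin chain (0.285), Loxl3, a lysyl oxidase (0.333), and Tll1, a procollagen protease (0.46). Serpinh1, the chaperone of procollagen, was at 901, 756, 1790.2 and 1062 CPM.

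With D-CAN 41 of the listed genes passed the minimum and 30 had a log2 ratio above 0, with a median of 0.25 beside 0.15 for all genes. By 2-fold 4 were higher and 2 lower, against 12.7% and 7.16% of all genes. Adamts3, which trims procollagen, was at 2.87 (95% interval 2.26 to 3.66) of WT/PBS, Itga11, a fibroblast collagen receptor, at 2.7 (95% interval 2.29 to 3.18) and Plod2, which makes hydroxylysine for cross-links, at 2.08 (95% interval 2 to 2.17). Sec24d, an export coat protein, was at 2.08. Tll1 stood at 0.0783 and P3h2, a prolyl hydroxylase, at 0.242, both lower by 2-fold, and P4ha3 was at 0.499. Tll1 was therefore low in both treated libraries against its own control. Of the listed genes, 40 passed the minimum between the PBS libraries. Pdgfrb-TK/PBS was 2-fold or more above WT/PBS for Adamts3 alone and below it for P3h2 alone, beside 8.63% and 8.62% of 10270 genes. These were the directions of both genes with D-CAN.

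Tumor cells carried some collagens above the level of immune cells, though not above all other classes. Endothelial-marker cells had Col18a1 at 565, 523, 455 and 458 CPM and Col4a1 at 3224, 3505, 2642 and 2660 CPM. In KPC tumor-marker cells Col18a1 was at 232, 240.5, 239 and 219 CPM, and these cells held 84346 of its 99937 UMIs. Macrophage-, neutrophil-, T, B and dendritic-marker cells were summed as immune cells for comparison, in which Col18a1 was at 32, 32.9, 17.6 and 20.6 CPM. Basement membrane type IV followed, and Col4a1 was at 157, 127, 161 and 180.3 CPM against 36.4, 31.3, 28 and 50 CPM in immune cells. Col27a1, a fibrillar chain, was at 79.2, 59.9, 78.4 and 22.3 CPM against 11.7, 10.8, 9.67 and 2.96 CPM. Col4a5 was at 36.3, 26.6, 29.5 and 19.2 CPM against 6.62, 3.24, 4.26 and 1.93 CPM. These genes lay above the immune level in 4 of 4 libraries, in CPM and in UMIs per cell.

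The main fibrillar genes depended on the scale. Col1a1 was at 9.12, 20.9, 25.2 and 58.5 CPM in KPC tumor-marker cells and at 19.2, 25.9, 54.1 and 129 CPM in immune cells, higher in the latter in 4 of 4 libraries. In UMIs per cell, a scale added after seeing the data, it was at 0.149, 0.239, 0.768 and 1.26 UMIs in KPC tumor-marker cells and at 0.114, 0.0656, 0.27 and 0.803 UMIs in immune cells, higher in the former in 4 of 4. Empty droplets were not analysed here, so the part of free RNA in these values was not tested. Col6a1 was at 39.5, 24.3, 28.8 and 26.7 CPM against 10.4, 2.7, 9.28 and 26.2 CPM, near the immune level in WT/PBS alone on this scale.

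Across conditions, Col18a1 varied little in KPC tumor-marker cells, with ratios of 0.966 (95% interval 0.947 to 0.986) after GCV and 1.09 (95% interval 1.07 to 1.11) with D-CAN. Col27a1 was at 3.52 (95% interval 3.37 to 3.69) of WT/PBS in D-CAN, and WT/PBS was the 1 low library. Col7a1, the anchoring fibril chain of epithelial basement membranes, was at 15.2, 3.35, 7.33 and 9.21 CPM, a ratio of 4.54 (95% interval 3.96 to 5.23) after GCV, against 2.31, 2.7, 1.74 and 3.22 CPM in immune cells. Col5a3 was at 6.84, 0.906, 2.18 and 4.16 CPM with a ratio of 7.55 (95% interval 5.85 to 9.91), and Pdgfrb-TK/PBS was its low library. Immune cells had Col5a3 at 2.15, 1.08, 1.84 and 8.75 CPM, above the tumor cells in both PBS libraries. Col11a1 and Col5a1 were 2-fold or more higher after GCV too, at 2.99 and 2.71, but against WT/PBS the log2 ratio of Col5a1 was -0.11.

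After GCV 27 collagen genes passed the minimum in KPC tumor-marker cells, 4 higher by 2-fold (Col5a1, Col5a3, Col7a1 and Col11a1) and 2 lower (Col1a1 and Col3a1), beside 4.32% and 1.52% of 13778 genes, with a median log2 ratio of 0.37 beside 0.10 for all genes. Of these 6, 2 stayed past 2-fold with WT/PBS as control, the lower Col1a1 and Col3a1. With 5 CPM added 2 stayed, Col5a3 and Col7a1, so that no gene stayed past 2-fold under both settings. With D-CAN 1 of 28 was higher (Col27a1) and 8 were lower, beside 9.5% and 2.68% of 14300 genes, with medians of -0.47 and 0.18. The lower ones were Col1a1, Col1a2, Col3a1, Col4a4, Col4a6, Col5a2, Col8a1 and Col12a1. With Pdgfrb-TK/PBS as control 0 of these 9 genes stayed past 2-fold, Col27a1 included. In tumor cells Col1a1, Col1a2, Col3a1 and Col5a2 lay above the immune level in 0 of 4 libraries in CPM and in 4 of 4 in UMIs per cell. Their immune levels were also lower with D-CAN than in WT/PBS, at ratios of 0.419, 0.381, 0.498 and 0.304 in this order. In CPM, Col8a1 and Col12a1 lay above the immune level in 3 and 2 of 4 libraries, and Col4a4 and Col4a6 in 4 of 4. In macrophage-marker cells the D-CAN ratio was 0.161 for Col8a1 and 0.0676 for Col12a1. There it was 0.376 for Col4a4 and 2.82 for Col4a6, from 8 and 7 UMIs.

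Endothelial-marker cells carried mainly basement membrane collagens. In endothelial-marker cells type IV gave 81.4, 82.1, 76.6 and 74.1% of collagen UMIs, with Col4a1 at 3224, 3505, 2642 and 2660.3 CPM, above fibroblast-marker cells of the same library in 4 of 4. Col18a1 was at 565, 523, 455 and 458 CPM and Col15a1 at 388, 253, 241 and 184 CPM. Col13a1, a transmembrane collagen, had 1070 of its 1274 UMIs in these cells, at 124, 218, 98 and 294 CPM. D-CAN stood at 0.333 (95% interval 0.262 to 0.418) of WT/PBS for Col13a1, from 82 and 847 UMIs. After GCV 5 collagen genes passed the minimum in endothelial-marker cells and 0 of them differed by 2-fold in either direction, beside 3.11% higher and 2.33% lower of 1415 genes. With D-CAN 11 passed and 3 were lower (Col1a2, Col8a1 and Col13a1), beside 4.31% of 5640 genes, and 0 were higher, beside 7.57%. Endothelial Col1a2 was at 23.4, 60.7, 52.6 and 108 CPM, against 16.3, 25.4, 42 and 110.1 CPM in immune cells.

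Mural-marker cells had both fibrillar and basement membrane collagens. In the 3 libraries with more than 3 of them, Col4a1 was at 3077, 3042 and 3409.6 CPM, Col1a1 at 734, 2108 and 1165 CPM and Col18a1 at 843, 928 and 652 CPM. Col5a3 was at 482, 611 and 461 CPM, above fibroblast-marker cells of each of these libraries. Mesothelial-marker cells had Col3a1 at 3139.6, 3017 and 2597 CPM and Col1a2 at 2608, 2212 and 1384 CPM in the 3 libraries with more than 1 cell. Among immune classes, Col14a1 stood above the tumor cells in macrophage-marker cells, at 46.5, 66, 52.3 and 19.4 CPM against 0.787, 0.432, 1.11 and 1.63 CPM in KPC tumor-marker cells. Its macrophage ratio was 0.705 (95% interval 0.567 to 0.886) after GCV and 2.69 (95% interval 2.18 to 3.33) with D-CAN. Pdgfrb-TK/PBS stood at 3.39 (95% interval 2.58 to 4.45) of WT/PBS and above D-CAN, so the direction with D-CAN rested on the choice of control.

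**Figure D5:**
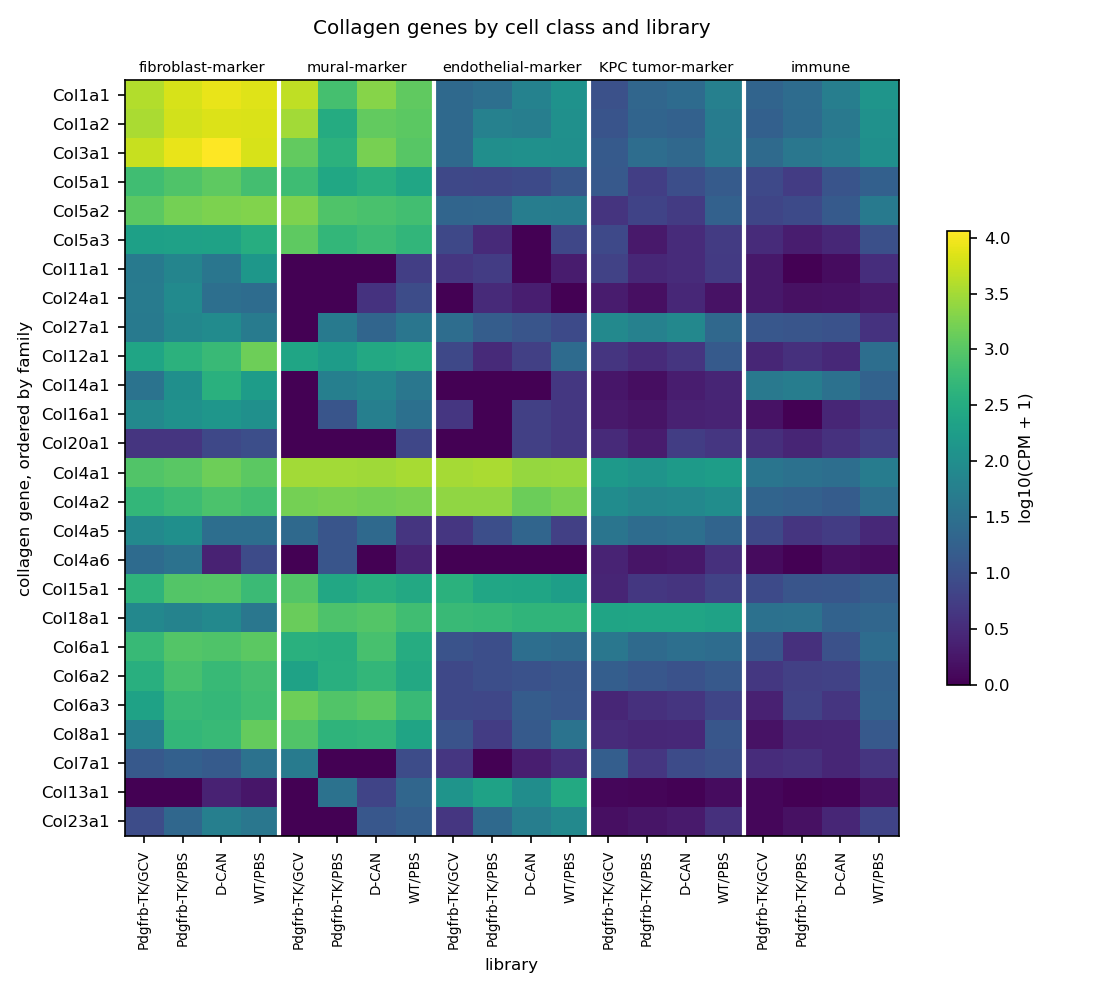
Level of the 26 collagen genes with at least 1000 UMIs over all cells, as log10(CPM + 1), by cell class (blocks) and library (columns), with genes ordered by family; the Pdgfrb-TK/GCV column of mural-marker cells holds 3 cells. Leaving out that column, Col1a1, Col1a2 and Col3a1 are brightest in fibroblast-marker cells and Col5a3 in mural-marker cells. Col4a1 and Col4a2 are brightest in mural- and endothelial-marker cells. Within KPC tumor-marker cells Col18a1 is the brightest gene.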

How the data were processed

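The authors sequenced 1 pooled suspension per condition with a droplet 3′ kit, aligned reads to mm10 and deposited UMI counts per gene and cell barcode. The submitters' processing notes name Cell Ranger and STAR 2.6, and the file header reads cellranger 7.0.0. From these deposited counts, cells with at least 200 genes were kept and gated on 12 marker lists: each marker, per 10000 counts and scaled to its 99.9 percentile, was averaged, and a class needed 3 markers, a score of 0.15 and a second score at most 0.7 of the first. Doublets were not called, and cells passing several gates stayed ungated. Counts were summed per class and library. Ratios used the PBS library of the same model. Genes with 100 UMIs in both libraries together were compared, a 2-fold difference being counted on log2(CPM + 1). Intervals are exact: Poisson for levels, Clopper-Pearson for shares and conditional binomial for ratios. With 1 library per condition no test was made. In fibroblast-marker cells, levels were given for the 12 most counted collagens and for up to 5 of the largest differences each way. In other classes only some of the 5 most counted were given. Neutrophil-, T, B and acinar-marker cells were not described singly. Scripts were tested on simulated data, and 10 alternatives were planned and others added after seeing the data. The members and lists were chosen with earlier results of these data known. Python 3.11.15, numpy 2.4.6, scipy 1.17.1, pandas 2.3.3 and matplotlib 3.10.9 were used.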

Additional observations from a re-analysis of the deposited data

Results flagged for a closer look

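The GCV and D-CAN comparisons gave opposite directions, by at least 0.5 on the log2 scale in each, for 5 collagen genes in fibroblast-marker cells. None of these differences was tested, since each condition was 1 library. Only collagen genes with at least 100 UMIs in each comparison were examined. The share of all genes that meet this rule was not taken, here or in the tumor cells, so the counts describe the members only. The log2 ratio after GCV was -0.68 for Col3a1, -3.86 for Col6a5, -1.59 for Col14a1, -1.12 for Col15a1 and -0.70 for Col27a1. With D-CAN it was 0.81 for Col3a1, 0.997 for Col6a5, 1.10 for Col14a1, 0.73 for Col15a1 and 0.87 for Col27a1. Against the other model's PBS library, Col6a5 with D-CAN was at -1.03, so that its directions were no longer opposite, and Col15a1 was at 0.04. In KPC tumor-marker cells 4 genes differed the other way. After GCV the log2 ratio was 0.56 for Col4a6, 1.26 for Col5a1, 2.04 for Col5a3 and 1.19 for Col11a1. With D-CAN it was -1.002 for Col4a6, -0.64 for Col5a1, -0.70 for Col5a3 and -0.62 for Col11a1. With the other PBS libraries as controls none of these 4 kept both of its directions: Col4a6 turned to -0.54 after GCV and 0.10 with D-CAN, Col5a1 to -0.11 and 0.73, and with D-CAN Col5a3 turned to 0.74 and Col11a1 to 0.18.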

How the results depend on the processing

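No replicate could be left out. No paired analysis was possible because there is 1 library per condition. The fibroblast-marker ratio after GCV, 0.602, was 0.612 with a stricter gate, 0.578 without the 5% of cells with the most UMIs, 0.575 with the other model's PBS library as control and 0.642 without cells with a Wt1 UMI, an alternative chosen after seeing the data. With D-CAN, 1.17 became 1.15, 1.13, 1.23 and 1.09 in the same order, 1.10 with cells thinned to 2000 UMIs, 1.08 with cells of equal weight and 1.18 with collagens left out of the total. Over all cells the GCV ratio of 0.738 was 0.498 thinned, 0.508 with equal weight, 0.716 without the deepest cells and 0.231 against the other PBS library. The D-CAN ratio of 0.808 was 0.768, 0.705, 0.772 and 2.58 under these settings and 0.820 with at least 500 genes per cell, so its direction over all cells rested on the control.

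Against the other PBS library 2 collagens were higher and 12 lower by 2-fold after GCV, in place of 0 and 6, and 3 were lower with D-CAN, in place of 6. With no minimum of UMIs 1 was higher after GCV, and with 5 CPM added 3 were higher with D-CAN, in place of 5. The shares of all genes past 2-fold under these settings were not taken, so these counts describe the members only. Of the genes chosen by the naming rule, which leaves out Col6a5 with D-CAN, the other PBS library turned the direction of 4 of 20 with D-CAN in fibroblast-marker cells, 0 of 16 after GCV, and in KPC tumor-marker cells 7 of 12 and 4 of 10. Among those past 2-fold it turned the D-CAN log2 ratio of Col8a1 (0.18) and Col12a1 (0.49) in fibroblast-marker cells and of Col1a1 (0.26), Col4a6 (0.10), Col8a1 (0.047) and Col12a1 (0.42) in KPC tumor-marker cells, and the GCV ratio of Col5a1 there (-0.11).

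The share of collagen UMIs in fibroblast-marker cells of Pdgfrb-TK/GCV, 27.4%, was 27.7% with at most 20% mitochondrial UMIs, 24.1% with the stricter gate, 31.3% thinned, 25.5% with equal weight, 29.1% without the deepest cells and 8.84% without Wt1 cells. With at least 500 genes per cell and then these settings, it was 43.7, 43.8, 37.4, 53.6, 46.8, 46.7 and 23.2% in Pdgfrb-TK/PBS, 78.4, 78.9, 73.6, 81.2, 71.2, 79.3 and 19.9% in D-CAN, and 75.7, 76.1, 70.6, 76.9, 66.5, 79.1 and 43.3% in WT/PBS. The causes of these shifts were not tested. In the Wt1 setting the cells left the fibroblast-marker class but stayed in the library total, which lowers the share by construction.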
